A study of Mus musculus with 8 samples.

Results

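Around Mex3a, on mouse chromosome 3, lie 203 protein-coding genes whose RNA was compared here between intestinal crypts of Mex3a knockout (KO) mice and of wild-type littermates (WT). They were chosen by position alone: every protein-coding gene of the deposited table that reaches into the stretch from 5 Mb upstream of the start of Mex3a to 5 Mb downstream of its end (GRCm38, chromosome 3, 83532395 to 93541396), other than Mex3a and the 3 genes Fdps, Pmvk and Mrpl24, which were left out by name. This is 203 of the 55114 genes in the table and of its 22026 protein-coding genes, and 797 further protein-coding genes lie elsewhere on chromosome 3. The mice were 8-week-old C57BL/6 animals, 4 per genotype, and crypts, the pockets of the epithelium that hold the intestinal stem cells, were detached with EDTA from the intestine. The KO allele is constitutive (Mex3a-/-) and lacks exon 1 and part of exon 2, and the controls are labelled Ctrl. The sources used here do not give how the allele was made or how many generations it was backcrossed. All KO mice carry the same allele together with whatever sequence of chromosome 3 flanks it, so an effect of the deletion and an effect of the flanking sequence on a neighbouring gene cannot be told apart in these counts.

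MEX3A is an RNA-binding protein and a marker of intestinal stem cells. Genes that neighbour one another on a chromosome can share enhancers and chromatin domains, and a mutant allele that was moved between strains can carry along neighbouring variants of the strain in which it was made. The interval is rich in gene families: the ephrin-A ligands lie downstream of Mex3a, followed by the S100 calcium-binding proteins and the epidermal differentiation complex, a cluster of small proline-rich, late cornified envelope and fused S100 genes known for building the outer layer of skin.

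The libraries held 20324184 to 24726221 counts on genes in WT and 23489180 to 30654105 in KO, and the 203 genes took 0.717% to 0.830% of the counts of a mouse. Mex3a itself was counted 236 to 328 times in each WT library and 6 to 28 times in each KO library, which fits the labels. Crypt base stem cell markers summed to between 4244 and 4977 CPM (counts scaled to a common library size) in WT and between 3151 and 3919 in KO, and pan-epithelial markers to between 6222 and 6913 in WT and between 7055 and 8758 in KO, so the labelled tissue carried its markers in every mouse. The labels name no batch. In whole crypts, fewer cells of a type and less RNA per cell cannot be told apart.

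Of the 203 genes, 118 had enough counts for the test and 85 did not. No read was counted for 46 of these 85 in any mouse, 22 had 1 to 10 counts over all 8 mice, and 17 had more. The untested genes lie mostly at the downstream end: of the 58 genes that start 3 Mb or more downstream, where the epidermal differentiation complex lies, 7 were tested. Upstream of Mex3a, 44 of 62 genes were tested, and downstream, 74 of 141. Per length, in FPKM (fragments scaled by gene length and library size), 49 of the 203 genes had a mean level of at least 10 and 4 of at least 100. These 4 were Rps3a1 (mean level 1302 FPKM), encoding a protein of the small ribosomal subunit, Rps27 (204 FPKM), another one, Hdgf (138 FPKM), encoding a growth factor that binds chromatin, and Ssr2 (105 FPKM), encoding a subunit of the translocon-associated complex of the endoplasmic reticulum. None of the 4 passed an unadjusted p of 0.05, and their log2 fold changes of KO over WT were -0.11, 0.11, -0.0011 and 0.07 in that order. Without KO replicate 1 the p of Rps3a1 was 0.0383, without KO replicate 2 the sign of Rps27 (-0.17) and Ssr2 (-0.014) turned, and Hdgf turned under most alternatives.

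Promoter sequence is shown for 6 of the named genes. Lmna, Sh2d2a, Rhbg and Trim46, described below, are not among them. The 6 include Rab25, the gene next to Mex3a, which did not pass the test. Sema4a, Pklr and Sprr2a1 had more RNA in KO (unadjusted edgeR p under 0.05), and Clk2 and Tmem131l had less. Each is the RefSeq sequence (GRCm38.p6) of the 250 bases before the first listed start, less any bases inside the deposited gene, written 5′ to 3′ on the gene's strand, and capitals mark CG dinucleotides, the sites of DNA methylation in mammals.
Rab25 (chr3:88548301-88548529, minus strand): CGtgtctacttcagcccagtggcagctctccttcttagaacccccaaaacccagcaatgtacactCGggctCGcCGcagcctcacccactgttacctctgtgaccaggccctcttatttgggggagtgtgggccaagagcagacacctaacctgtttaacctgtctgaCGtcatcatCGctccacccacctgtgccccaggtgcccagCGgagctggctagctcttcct
Sema4a (chr3:88461183-88461432, minus strand): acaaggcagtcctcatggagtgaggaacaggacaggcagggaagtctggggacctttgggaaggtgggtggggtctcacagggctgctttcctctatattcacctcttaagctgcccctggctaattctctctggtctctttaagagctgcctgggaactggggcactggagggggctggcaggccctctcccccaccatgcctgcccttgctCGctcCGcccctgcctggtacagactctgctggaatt
Pklr (chr3:89135892-89136141, plus strand): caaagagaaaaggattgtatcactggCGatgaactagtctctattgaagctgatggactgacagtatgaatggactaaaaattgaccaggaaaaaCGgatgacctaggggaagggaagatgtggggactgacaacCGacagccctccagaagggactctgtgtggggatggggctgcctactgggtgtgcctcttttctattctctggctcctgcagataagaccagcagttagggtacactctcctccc
Sprr2a1 (chr3:92215585-92215798, plus strand): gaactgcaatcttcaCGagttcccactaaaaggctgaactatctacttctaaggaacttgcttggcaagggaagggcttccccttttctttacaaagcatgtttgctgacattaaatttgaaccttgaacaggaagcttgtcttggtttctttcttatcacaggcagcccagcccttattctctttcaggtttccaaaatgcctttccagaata
Clk2 (chr3:89164545-89164794, plus strand): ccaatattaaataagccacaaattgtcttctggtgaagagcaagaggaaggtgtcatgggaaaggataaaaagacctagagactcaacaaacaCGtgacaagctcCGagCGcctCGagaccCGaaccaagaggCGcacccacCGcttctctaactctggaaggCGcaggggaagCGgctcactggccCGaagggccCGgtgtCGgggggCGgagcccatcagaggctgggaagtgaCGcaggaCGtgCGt
Tmem131l (chr3:84040176-84040411, minus strand): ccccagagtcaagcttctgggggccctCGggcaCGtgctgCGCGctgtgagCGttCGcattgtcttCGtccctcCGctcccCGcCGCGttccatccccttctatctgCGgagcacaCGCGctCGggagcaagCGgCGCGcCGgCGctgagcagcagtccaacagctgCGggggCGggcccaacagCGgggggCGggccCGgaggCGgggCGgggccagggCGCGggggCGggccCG
The Tmem131l stretch held 31 CG dinucleotides in 236 bases, and the Clk2 stretch 16 in 250. The Rab25 stretch held 7 in 229, while Pklr had 3 and Sema4a 2 in 250 and Sprr2a1 had 1 in 214. Over full 250-base windows, the median was 12.5 CG in the 82 tested genes with a RefSeq start within 500 bases of the deposited one and 6.0 in all 27025 RefSeq genes. The 5 such genes called higher had 1 to 24 CG (median 3.0) and the 4 called lower had 0 to 33 (median 14). Glt28d2 alone gave the 24, the others called higher having at most 4. Those others include Fcrl1, which passed the filter on low counts only through the KO mice. Tchh alone gave the 0, the others called lower having at least 12. The letters GGGNGTGGC, a form of the site bound by KLF factors, occurred on either strand in 5.11% of 32851 RefSeq windows of 250 bases, in 4 of the 98 tested genes that have one, and in 0 of the 14 of these that were called.

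Genotype differences across the interval were small for most genes. Of the 118 tested genes, 58 were higher and 60 lower in KO, the median log2 fold change was -0.0011, and 84 lay within 0.2 of no change. The median size of the log2 fold change was 0.107, against 0.111 over all tested protein-coding genes but Mex3a. With edgeR's quasi-likelihood test, 16 genes (13.6%) had an unadjusted p under 0.05, where 8.38% of all 16109 genes tested did. In the direction of higher expression in KO, 11 genes were called (9.32%, background 5.33%), and in the direction of lower expression 5 genes (4.24%, background 3.05%). The 16 and the 11 both count Sprr2a1 and Sprr2a2, overlapping copies described below that are not separate measurements. None of the 118 had an adjusted p under 0.05 in that test, where Mex3a was the 1 gene of the whole table that did (0.00621%), and their smallest adjusted p was 0.502. In what follows, "called" means an unadjusted p under 0.05, and each call is to be read against that background, since the adjusted p of the 16 genes lay between 0.502 and 0.589. DESeq2 called 16 of the 118 without adjustment (background 9.08%), losing Tsacc and gaining Muc1. With its adjustment it called 1, Sh2d2a (adjusted p of 0.0393), where it called 0.577% of all genes. The count rests in part on single mice: 9 of 119 tested genes were called without KO replicate 4 (background 6.16%). These 9 include Prss48, a serine protease gene named for this, which entered that fit through the WT mice (5, 17, 9 and 12 counts in WT and 5, 4, 4 and 6 in KO), and 8 of 118 were called without it. For higher expression the count was 6 after omission of WT replicate 1 (background 4.06%), 6 after that of KO replicate 3 (2.99%) and 5 of 119 after that of KO replicate 4 (3.69%). For lower expression it was 2 of 118 without WT replicate 4, a share below the 2.61% of all genes in that fit.

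**Figure D1:**
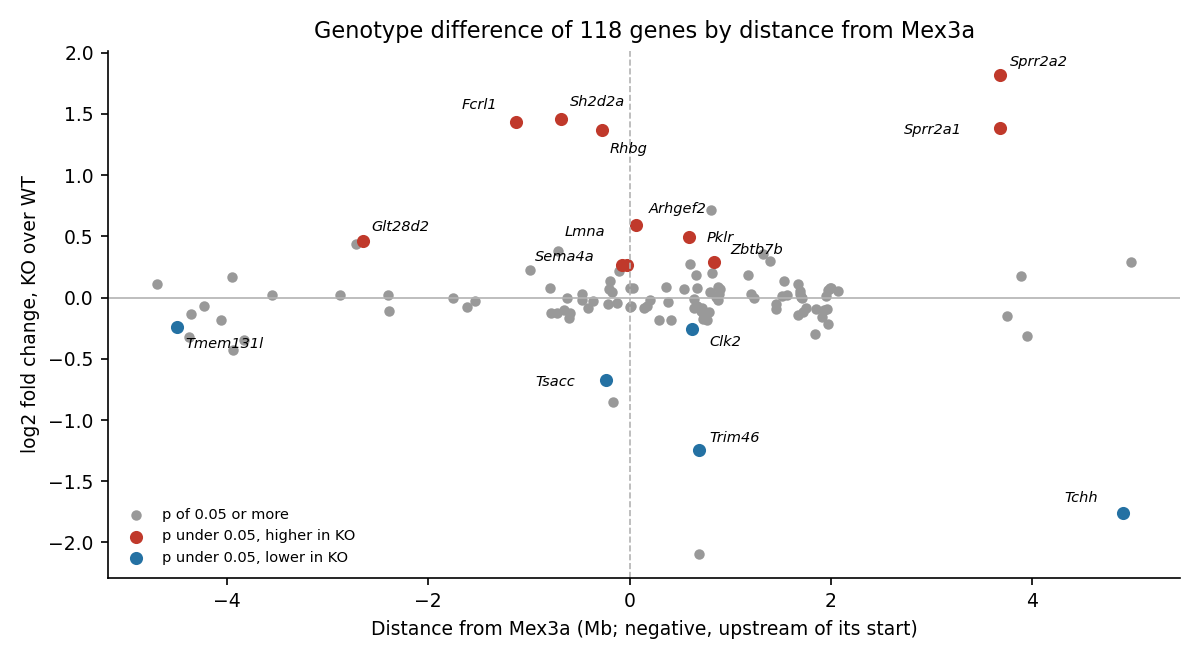
Log2 fold change of KO over WT (edgeR) of the 118 tested genes against their distance from Mex3a in Mb, with negative distances upstream; red and blue points are the 11 genes called higher and the 5 called lower at an unadjusted p under 0.05. The 16 called genes lie on both sides of Mex3a, and 84 of the 118 genes lie within 0.2 of the zero line.

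A second measure needs no model: in 11 genes (9.32%) all 4 KO mice lay on one side of all 4 WT mice in CPM, where 4.05% of all genes tested did. Without Fcrl1, which passed the filter on low counts only through the KO mice, 10 of 117 were separated, 6 of them with KO above. All KO mice lay above all WT mice in 7 genes (5.93%, background 2.17%), and below in 4 (3.39%, background 1.87%). The 7 were Glt28d2, Fcrl1, Sh2d2a, Rhbg, Tmem79, Lmna and Pklr, and the 4 were Tigd4, Trim46, Ubap2l and S100a13. Tmem79, Tigd4, Ubap2l and S100a13 were separated without being called. They are named here because of these values, and their log2 fold changes were 0.14, -0.43, -0.09 and -0.21. With fewer mice more genes separate: 17 did without WT replicate 2 (background 7.96%) and 25 without KO replicate 1 (background 12.3%), or 24 without Prss48.

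The 12 tested genes closest to Mex3a, 6 on each side, were for the most part not called. Rab25, which encodes a small GTPase of recycling endosomes in epithelia, ends 0.633 kb beyond the end of Mex3a on the opposite strand (chromosome 3 of GRCm38, as all positions here, 88542029 to 88548300). It measured 134, 136, 134 and 119 CPM in WT and 141, 151, 135 and 124 CPM in KO. The ranges overlapped, and the log2 fold change was 0.08 (standard error 0.081, 95% interval -0.10 to 0.26, p = 0.353 with edgeR's quasi-likelihood test, exact permutation p = 0.343). Lamtor2, a subunit of the Ragulator complex that anchors mTORC1 signalling at lysosomes, lies 8.42 kb downstream and had a log2 fold change of -0.08 (95% interval -0.24 to 0.09). Ubqln4, a ubiquilin that escorts proteins to the proteasome, lies 12.4 kb downstream and had one of -0.07 (95% interval -0.21 to 0.08). For these 3 neighbours the intervals reach no further than 0.26 in either direction.

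On the other flank the nearest tested gene, Lmna, was called. Lmna encodes lamins A and C of the nuclear lamina and lies 22.4 kb upstream of Mex3a (88480147 to 88509956, minus strand). It measured 166, 150, 167 and 149 CPM in WT and 205, 172, 199 and 184 CPM in KO. Every KO mouse was above every WT mouse (log2 fold change 0.26, standard error 0.081, p = 0.00897, adjusted p = 0.518 with edgeR's quasi-likelihood test, exact two-sided permutation p = 0.0286, the smallest that 4 against 4 mice allow). The p stayed under 0.05 in all 17 alternative fits, at most 0.0289.

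Sema4a, a semaphorin 71.2 kb upstream, measured 141, 120, 133 and 146 CPM in WT and 129, 164, 188 and 168 in KO. KO replicate 1 lay inside the WT range and the other KO mice above it (log2 fold change 0.26, p = 0.0479, exact permutation p = 0.114), and blocked by replicate number p was 0.0583. The call of Sema4a was also lost without any of 6 single mice (WT replicates 1, 2 and 3 and KO replicates 2, 3 and 4), with a p of up to 0.138 without KO replicate 3, with upper-quartile factors (0.0547) and with both limma fits (0.0508 and 0.0502). Arhgef2, encoding a microtubule-bound activator of the GTPase RhoA, lies 64.6 kb downstream. It measured 17.3, 22.1, 23.0 and 28.4 CPM in WT and 22.9, 30.6, 42.9 and 40.5 CPM in KO, so that 3 of 4 KO mice passed the highest WT mouse (log2 fold change 0.59, standard error 0.21, p = 0.0209, exact permutation p = 0.0857). The p of Arhgef2 was 0.0559 when WT replicate 1 was left out, and 0.0628 and 0.0593 for KO replicates 3 and 4.

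The remaining genes of this inner stretch were not called. Ssr2, 34.5 kb downstream, had a log2 fold change of 0.07 and Khdc4, an RNA-binding splicing factor 144 kb downstream, one of -0.09. Upstream, Slc25a44, a mitochondrial carrier of branched-chain amino acids, had one of 0.22 (p = 0.0640, exact permutation p = 0.114). Its edgeR p was 0.0413 with the replicate block and 0.0212 with a term for the Xist and Y group. Leaving out KO replicate 1 gave Slc25a44 a p of 0.0141. Pmf1, a kinetochore protein, had a log2 fold change of -0.04 (0.11 without WT replicate 2 and 0.039 without KO replicate 3), and Smg5, a factor of nonsense-mediated decay, one of 0.05. Bglap3, related to the bone protein osteocalcin, measured 1.16, 1.26, 0.293 and 1.38 CPM in WT and 0.546, 0.660, 0.563 and 0.499 CPM in KO. The low WT mouse is replicate 3, and the log2 fold change of -0.85 (standard error 0.42) had a p of 0.0723, or 0.00194 without that mouse. Among these 12 nearest genes, 3 were called (Lmna, Sema4a and Arhgef2), all higher in KO.

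**Figure D2:**
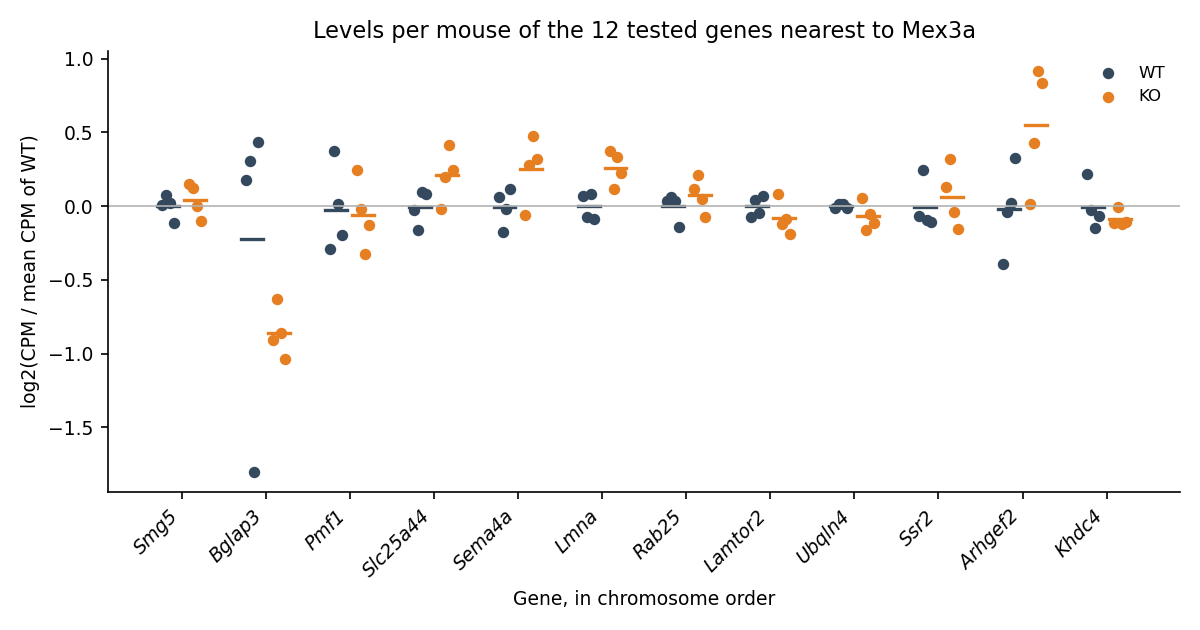
Levels of the 12 tested genes nearest to Mex3a in each mouse, as log2 of CPM over the mean CPM of WT; points are mice in the order of their replicate numbers (4 WT, 4 KO) and short bars are group means on this scale. Rab25, Lamtor2 and Ubqln4 overlap between genotypes, the 4 KO mice lie above the 4 WT mice in Lmna, and WT replicate 3 lies far below the other WT mice in Bglap3.

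Split by distance, 5 of 27 tested genes (18.5%) within 0.5 Mb of Mex3a were called, 5 of 36 (13.9%) between 0.5 and 1 Mb, 1 of 35 (2.86%) between 1 and 2.5 Mb, and 5 of 20 (25.0%) between 2.5 and 5 Mb. The share thus did not fall steadily with distance. The 5 outermost calls include Sprr2a1 and Sprr2a2, overlapping copies described below that are not separate measurements. The call between 1 and 2.5 Mb was Fcrl1, which entered the test through the KO mice, and without it 0 of 34 genes there were called by edgeR at an unadjusted p under 0.05. Within 0.5 Mb, 4 of the 15 upstream genes and 1 of the 12 downstream genes were called, and between 1 and 2.5 Mb downstream 0 of 29 were, by edgeR's quasi-likelihood test without adjustment. The outermost bin holds few tested genes at low counts: their median level was a mean log2 CPM of 2.61, against 5.97 within 0.5 Mb. Beyond the interval, 12 of 100 protein-coding genes (12%) at 5 to 10 Mb were called, 33 of 405 (8.15%) farther away on chromosome 3, and 1043 of 12491 (8.35%) on other chromosomes. Genes with separated genotypes made up 11.1%, 8.33%, 8.57% and 10.0% of the 4 bins from the inside out, then 7.0% at 5 to 10 Mb, 2.96% farther away on chromosome 3 and 3.99% on other chromosomes. Without Fcrl1 the share between 1 and 2.5 Mb was 5.88% (2 of 34). Without KO replicate 4, 6 rather than 10 genes within 1 Mb were called, while the share of all genes called went from 8.38% to 6.16%. No test of these shares against each other was made.

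**Figure D3:**
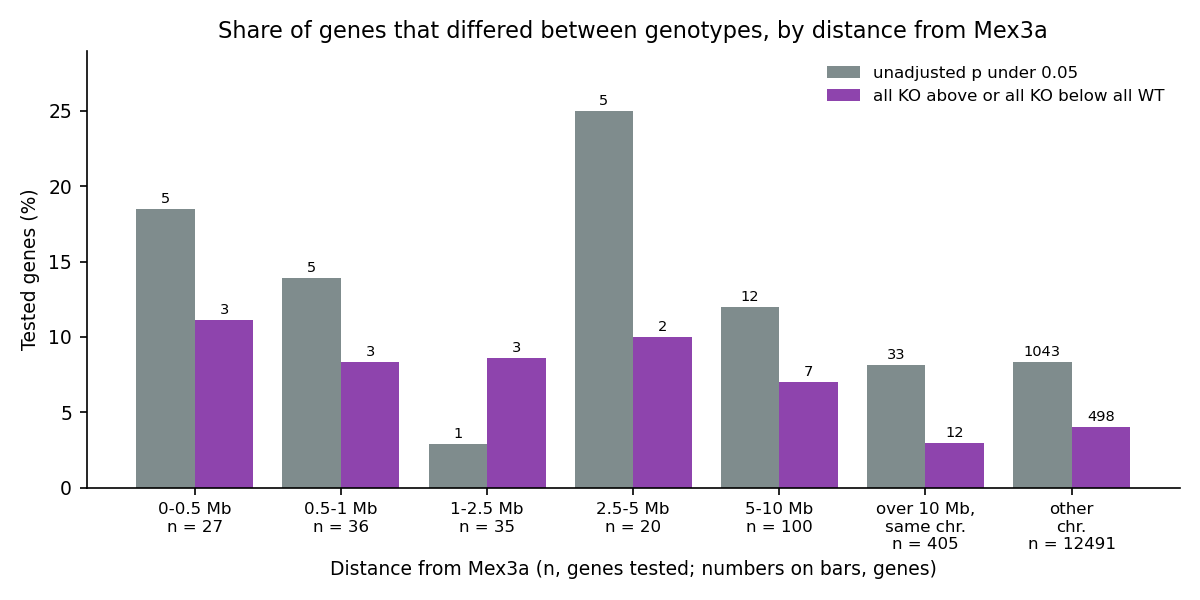
Share of tested protein-coding genes, in percent, that had an unadjusted p under 0.05 (grey) or in which all KO mice lay above or all below all WT mice (purple), by distance from Mex3a; numbers on bars are genes. The share called runs 18.5%, 13.9%, 2.86% and 25.0% from the innermost to the outermost bin of the interval. The 2.86% is Fcrl1 alone, and the 25.0% counts the overlapping copies Sprr2a1 and Sprr2a2 separately. The share separated lies between 8.33% and 11.1% in these 4 bins (5.88% between 1 and 2.5 Mb without Fcrl1). In the last 2 groups it is 2.96% and 3.99%.

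Across the 118 genes, the size of the log2 fold change was weakly related to distance (Pearson r = 0.139, Spearman rho = 0.0812) and more closely to the level (r = -0.462, rho = -0.421 with mean log2 CPM); these are descriptions across genes of the same 8 libraries. Of the 27 genes with a mean log2 CPM under 2, 8 were called (29.6%, against 8.56% of all protein-coding genes but Mex3a at that level), or 7 of 26 without Fcrl1. Between 2 and 5, 2 of 34 were called (5.88%, against 7.44%), and at 5 and over, 6 of 57 (10.5%, against 9.04%). Neighbouring tested genes had log2 fold changes of the same sign in 73 of 117 adjacent pairs (62.4%), against 53.9% of such pairs over all tested protein-coding genes but Mex3a.

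Upstream of Mex3a, 2 lymphocyte genes were called higher. Sh2d2a, which encodes an adaptor protein of activated T cells, lies 677 kb upstream (87846755 to 87855722, plus strand). It measured 0.462, 0.888, 1.51 and 1.21 CPM in WT and 2.02, 2.21, 4.11 and 2.93 CPM in KO. The genotypes did not overlap (log2 fold change 1.46, standard error 0.37, p = 0.00331 and adjusted p = 0.518 with edgeR's quasi-likelihood test, exact permutation p = 0.0286), and p was under 0.05 in all 17 alternatives. Fcrl1, encoding an Fc receptor-like protein of B cells, lies 1129 kb upstream (87376387 to 87402934, plus strand) and had few reads: 4, 6, 5 and 7 counts in WT and 16, 14, 22 and 18 in KO. Its log2 fold change was 1.44, but every WT mouse lay under the level that the filter on low counts asks for. Fcrl1 thus entered the test only through the KO mice in which it is high, and its call and the gap between its genotypes are a description, not a test. It is the 1 such gene among the 118, and 15 of 117 were called without it.

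Marker levels of lymphocytes are set beside these genes. The 6 T cell markers summed to 13.9, 10.7, 20.3 and 43.2 CPM in WT and 24.4, 40.2, 94.7 and 69.2 CPM in KO, and 5 of the 6 were called higher in KO. KO replicate 3 was highest for the sum of these markers and for Sh2d2a. WT replicate 4 had a higher sum than KO replicates 1 and 2 and less Sh2d2a (1.21 CPM) than either. The T cell sum is mostly Gzma (3.83 to 43.3 CPM over the 8 mice) and Gzmb (3.27 to 25.9 CPM). WT replicate 4 also lay above KO replicates 1 and 2 in Cd3e, Cd3g, Cd8a, Gzma and Gzmb taken singly. Trac differed: at low levels, it measured 0.231 to 0.537 CPM in WT and 0.672 to 1.56 CPM in KO, without overlap (log2 fold change 1.43). The 5 B and plasma cell markers summed to between 13.4 and 26.7 CPM in WT and between 14.9 and 24.4 in KO, and none of the 5 was called. That sum is mostly Jchain, a plasma cell gene (7.05 to 19.9 CPM over the 8 mice, log2 fold change -0.13). The 3 B cell markers Cd79a, Cd79b and Ms4a1 alone, summed after their values were seen, gave 3.05, 7.85, 4.10 and 5.68 CPM in WT and 7.39, 5.43, 10.8 and 8.21 CPM in KO, with log2 fold changes of 0.84, 0.38 and 0.66 that were not called. No marker of either list was at 0 in all mice. The part of these cells in the values of Sh2d2a and Fcrl1 was not tested. Of the 12 listed immune receptor and lymphocyte genes in the interval, 8 were tested, Sh2d2a and Fcrl1 were called higher and none lower (median log2 fold change of the list 0.23). Without Fcrl1, which entered the test through the KO mice, 1 of 7 was called and the median was 0.11. Tlr2, the receptor for bacterial lipoproteins, was not called (log2 fold change 0.11, 95% interval -0.85 to 1.07; -0.45 without KO replicate 2 and -0.089 without WT replicate 1).

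**Figure D4:**
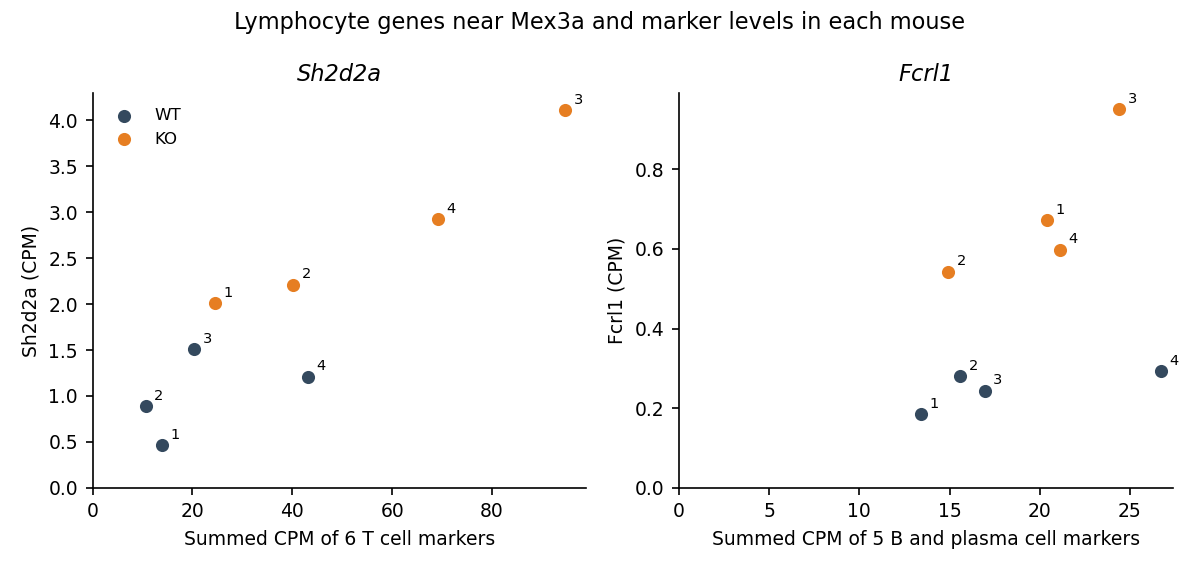
CPM of Sh2d2a against the summed CPM of 6 T cell markers (left) and CPM of Fcrl1 against the summed CPM of 5 B and plasma cell markers (right), one point per mouse with its replicate number. In both panels the 4 KO points lie above the 4 WT points on the vertical axis. On the horizontal axis the genotypes overlap, from 10.7 to 43.2 in WT and 24.4 to 94.7 in KO for T cell markers. The T cell sum is mostly Gzma and Gzmb, and the genotypes do not overlap in the marker Trac alone.

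Among transporters and enzymes, Rhbg and Pklr were called higher. Rhbg encodes an ammonium transporter of epithelial membranes and lies 278 kb upstream (88242874 to 88254709, minus strand). It measured 0.601, 0.514, 0.977 and 1.71 CPM in WT and 2.10, 2.02, 3.63 and 2.19 CPM in KO. All KO mice lay above all WT mice (log2 fold change 1.37, standard error 0.40, p = 0.00665, exact permutation p = 0.0286), and the call held in all 17 alternatives. Rhbg shares 11330 bases with Gm38392, a gene model on the same strand with 16 counts in all 8 mice. Pklr, the pyruvate kinase of liver and red cells, lies 595 kb downstream (89136142 to 89146784, plus strand) at a mean level of 30.5 FPKM. It measured 63.2, 89.6, 86.4 and 91 CPM in WT and 91.4, 104, 146 and 124 CPM in KO, with KO replicate 1 only just above WT replicate 4. The log2 fold change was 0.49 (standard error 0.16, p = 0.0136, exact permutation p = 0.0286), and the call held in all 17 alternatives. Enterocyte markers summed to 684 to 1977 CPM in WT and 1088 to 5070 in KO. KO replicate 3 was the highest for them and for Pklr, while KO replicate 1, at 1088, lay below WT replicates 1, 3 and 4 in these markers and above every WT mouse in Pklr. Their part in the Pklr difference was not tested. Pklr overlaps Hcn3 on the other strand over 711 bases, and Hcn3 had 609 counts in all, against 19168 for Pklr.

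Regulators of other kinds lie close to Pklr. Clk2, a kinase that phosphorylates SR splicing factors, lies 623 kb downstream and measured 69.8, 71.5, 61.6 and 59.9 CPM in WT and 56.1, 60.9, 49.3 and 53.3 CPM in KO. KO replicate 2 lay above WT replicate 4 and the other KO mice below all WT mice (log2 fold change -0.26, standard error 0.089, p = 0.0162, under 0.05 in all 17 alternatives, exact permutation p = 0.0571). Zbtb7b, a zinc finger transcription factor known for setting the CD4 T cell lineage, lies 836 kb downstream and measured 181, 150, 191 and 187 CPM in WT and 183, 231, 225 and 227 CPM in KO. KO replicate 1 lay inside the WT range (log2 fold change 0.29, standard error 0.11, p = 0.0218, exact permutation p = 0.0857). The p of Zbtb7b lay between 0.0507 and 0.0551 without WT replicate 2 and without KO replicate 2, 3 or 4. An antisense gene, Gm15417, lies within Zbtb7b over 2927 bases with 1056 counts.

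Trim46, a tripartite motif protein that bundles microtubules in axons, had the smallest p among the 5 genes called lower. It measured 1.11, 2.43, 1.86 and 2.17 CPM in WT and 0.840, 0.621, 0.779 and 0.931 CPM in KO, 693 kb downstream of Mex3a (89234177 to 89246309, minus strand). The KO mice all lay below the lowest WT mouse (log2 fold change -1.25, standard error 0.29, p = 0.00180, adjusted p = 0.502 with edgeR's quasi-likelihood test, exact permutation p = 0.0286), in all 17 alternatives with a p under 0.05. Trim46 shares 344 bases with Krtcap2 on the other strand, which had 11696 counts against 248 for Trim46 and a log2 fold change of -0.11. The sources used here do not say whether counting used strand, so the reads of such overlaps cannot be told apart.

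**Figure D5:**
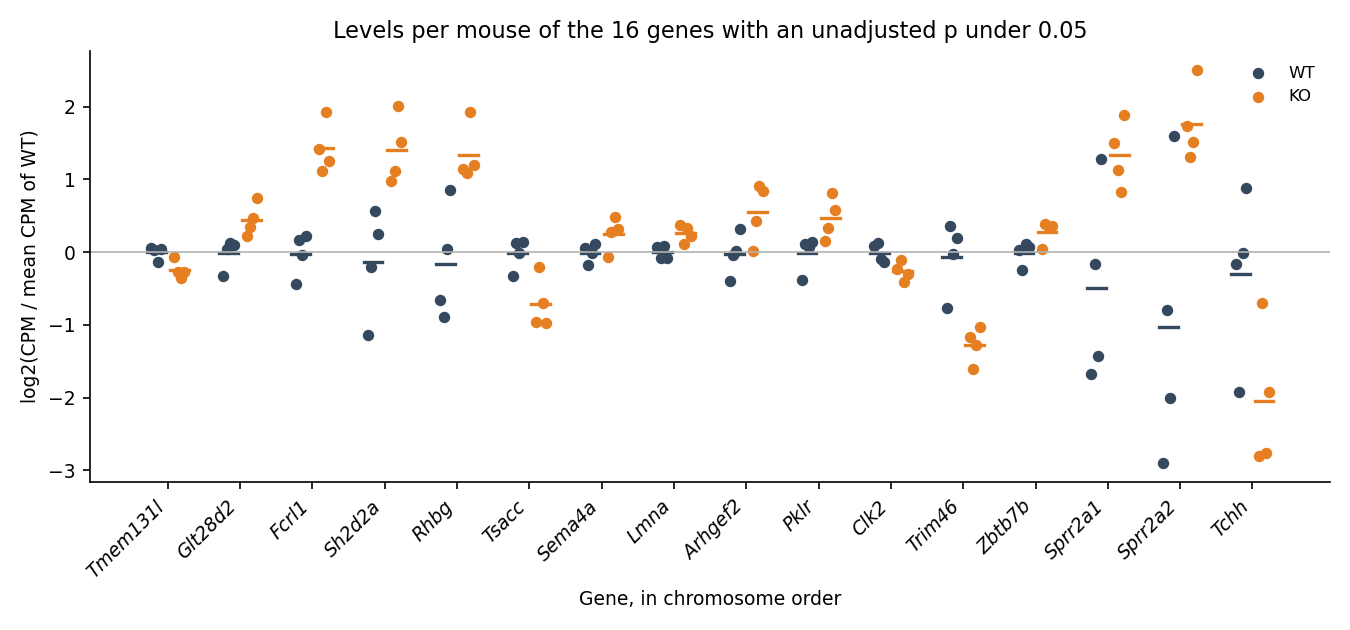
Levels in each mouse of the 16 genes called at an unadjusted p under 0.05, in chromosome order, as log2 of CPM over the mean CPM of WT; points are mice in the order of their replicate numbers and short bars are group means on this scale. The genotypes do not overlap in 7 of the 16 genes, Fcrl1 among them, and in 4.05% of all genes tested. As the 16 were picked by p in the same mice, this count is a description, not a test. WT replicate 4 lies among the KO mice in Sprr2a1 and Sprr2a2.

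Farther out, 3 genes of the epidermal differentiation complex were called. Sprr2a1, a small proline-rich protein of cornified envelopes, lies 3674 kb downstream (92215799 to 92221911, plus strand) and measured 4.07, 11.6, 4.83 and 31.4 CPM in WT and 36.7, 28.3, 23.0 and 47.9 CPM in KO. WT replicate 4 lay inside the KO range (log2 fold change 1.38, standard error 0.59, p = 0.0419, exact permutation p = 0.0857). Sprr2a2 measured 0.185, 0.794, 0.342 and 4.18 CPM in WT and 4.58, 3.41, 3.94 and 7.78 CPM in KO, with the same WT mouse high (log2 fold change 1.82, standard error 0.78, p = 0.0438, exact permutation p = 0.0857). Without WT replicate 4 the log2 fold changes of Sprr2a1 and Sprr2a2 were 2.31 and 3.47 (edgeR p of 0.000371 and 0.000106). Both calls were lost without WT replicate 1, 2 or 3 and without KO replicate 1 or 4 (edgeR p of 0.0643 to 0.108), that of Sprr2a1 also without KO replicate 2 (edgeR p of 0.0532) and that of Sprr2a2 without KO replicate 3 (edgeR p of 0.0545). These are not separate measurements: Sprr2a1 and Sprr2a2 overlap over 5992 bases, their RefSeq promoter windows are identical in 300 of 300 bases, and their longest transcripts in 99.93%. Sprr2a3, identical with them over 272 bases of the promoter window at a shift of 28 bases, was not called (log2 fold change -0.15, 95% interval -1.39 to 1.10). Since reads can be split among the 3 copies, their summed level is given as well: 6.19, 19.1, 7.86 and 50.2 CPM in WT and 48.0, 35.9, 31.9 and 63.3 CPM in KO, with overlap. Of 52 listed cornified envelope and fused S100 genes, 36 had no count in any mouse and 5 were tested. Tchh, trichohyalin of the hair follicle sheath, was the lower one of the 3 called, at 1.57, 0.467, 1.76 and 3.26 CPM in WT and 0.252, 1.09, 0.260 and 0.465 CPM in KO (log2 fold change -1.76, standard error 0.62, p = 0.0190, exact permutation p = 0.0571). The p of Tchh was 0.0689 without WT replicate 4 and 0.050 without KO replicate 1.

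The 3 called genes not yet described lie upstream. Tsacc, a co-chaperone of a testis kinase, lies 235 kb upstream and had 0.786, 1.07, 0.977 and 1.09 CPM in WT and 0.504, 0.854, 0.606 and 0.499 CPM in KO (log2 fold change -0.67, standard error 0.27, p = 0.0359, exact permutation p = 0.0571). The p of Tsacc was above 0.05 in 8 of 17 alternatives, among them DESeq2 (0.0911) and the omission of any mouse but WT replicate 1 or KO replicate 2 (up to 0.0974). A pseudogene within it, Gm37116, holds 141 counts against its own 149. Glt28d2, a glycosyltransferase family gene 2645 kb upstream, had 2.5, 3.22, 3.42 and 3.34 CPM in WT and 3.65, 3.96, 4.33 and 5.22 CPM in KO without overlap (log2 fold change 0.46, standard error 0.19, p = 0.0355, exact permutation p = 0.0286). The p of Glt28d2 was 0.0866 and 0.0529 when WT replicate 1 or 2 was left out, and 0.0652 and 0.114 for KO replicates 3 and 4. Glt28d2 shares 17668 bases with Gm37240, a gene model on the same strand with 12 counts. Tmem131l, a transmembrane protein 4492 kb upstream, had 38.6, 38, 33.8 and 38.2 CPM in WT and 35.4, 30.9, 29.1 and 30.7 CPM in KO, with KO replicate 1 above WT replicate 3 (log2 fold change -0.24, standard error 0.087, p = 0.0227, exact permutation p = 0.0571). The p of Tmem131l lay between 0.0556 and 0.0658 without WT replicate 4 and without KO replicate 2, 3 or 4, and was 0.0597 and 0.0624 with limma on log2(FPKM + 1) and log2(FPKM + 0.1).

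The calls of the other gene groups are to be read against the 8.38% of all genes called. Several of these lists are mixed, so that their counts are not shares of the class they are named for. The 3 ephrin-A ligands, which are membrane-bound signals, were all lower without a call: Efna3 had a log2 fold change of -0.18, and the list lay between -0.18 and -0.12. Of 13 listed S100 genes 6 were tested and none was called, S100a11 having a log2 fold change of 0.29 (p = 0.225, exact permutation p = 0.229, 0.0267 with the replicate block, and 0.00345 without WT replicate 2). Of 9 listed WNT, Notch and Myc regulators 7 were tested, none was called, and they lay between -0.07 (Trim2) and 0.11. The upper end is Tlr2, which the immune list also holds, and the next is Cks1b at 0.09. Of 14 genes listed for RNA processing and translation, all tested, 10 were lower and Clk2 was the 1 called, and the list also holds Krtcap2 and Dpm3, which act in protein glycosylation. A list built around vesicle traffic and the cytoskeleton had 2 calls among 15 tested, Arhgef2 and the semaphorin Sema4a, and also holds Rit1 and Hax1. A list built around nuclear envelope, chromatin and transcription genes had 2 among 17, Lmna and Zbtb7b, and also holds Bglap3, Smg5, Tmem79 and Ubap2l. The list of channels, transporters and pumps, which also holds Lrba, had 1 call among 9 (Rhbg), and that of lipid and energy metabolism, which also holds Gatb, Mtx1 and Fam189b, had 1 among 8 (Pklr). Atp8b2, a phospholipid flippase, led the channel list once genes under a mean log2 CPM of 1 were set aside, and was not called (log2 fold change 0.30, p = 0.309, or 0.0221 without KO replicate 1, exact permutation p = 0.543). A mixed list of 12 cell surface, matrix, receptor and cytoskeletal genes had 8 tested (Muc1, Thbs3, Insrr, Adam15, Npr1, Dclk2, Sh3d19 and Fhdc1) and none called, Fhdc1, a formin, having a log2 fold change of -0.18. The median over the 118 genes, against which these lists stand, was -0.0011.

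The gene with the largest fitted change among the 118 was not called and is named for its values. Muc1, a membrane mucin 688 kb downstream, measured 0.554, 1.26, 1.12 and 8.86 CPM in WT and 1.39, 0.349, 0.0865 and 0.931 CPM in KO. WT replicate 4 lies above all other mice (log2 fold change -2.09, standard error 0.95, p = 0.0548, exact permutation p = 0.20). Leaving that mouse out gave a log2 fold change of -0.50 (edgeR p of 0.497). The p of Muc1 was under 0.05 in 6 of the 16 alternatives in which it was tested, 0.0159 with DESeq2 among them.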

How the data were processed

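Intestinal crypts of 4 Mex3a KO mice and 4 WT littermates (C57BL/6, 8 weeks) were profiled by RNA-seq, and groups and replicate numbers were taken from the labels. The values deposited by the authors are unnormalized counts of reads on each gene in every mouse. The authors also deposited FPKM values of the same genes. Per the submitters' processing notes, HISAT2 2.0.5, featureCounts 1.5.0-p3 and CASAVA were used; the genome build is not given in the sources used here, and the deposited coordinates are those of GRCm38. Deposited fold changes and p-values of the authors' own comparison, and 8 columns of normalized values for genes on the authors' list, were not used.

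Counts were compared with edgeR 4.0.16 in R 4.3.3 (filterByExpr with a minimum count of 10, TMM factors, quasi-likelihood test with genotype as the only term, all 8 mice), with Benjamini-Hochberg adjustment over all 16109 genes tested. Standard errors are the log2 fold change divided by the square root of the F statistic, and 95% intervals use the total degrees of freedom. The two-sided exact permutation test used log2(CPM + 0.1) over all 70 assignments of the mice. Distances run from the nearer end of Mex3a to the nearer end of a gene. In counts simulated for 16109 genes, 56.1% of genes changed 2-fold and 89.6% of those changed 4-fold were recovered at an adjusted p under 0.05, with 3.42% false calls. Changes under 2-fold were not simulated, and recovery was not split by level, so it need not hold for genes with few counts. The simulated counts were drawn independently for each mouse. Among their unchanged genes 4.79% had an unadjusted edgeR p under 0.05, against 8.38% of all genes in the real counts.

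The 33 named genes are the 6 nearest tested genes on each side of Mex3a, the called genes up to 24 by p, the 5 tested genes with the highest mean FPKM, and the member with the largest change at a mean log2 CPM of at least 1 in each gene list; exceptions are marked. The members and lists were chosen with earlier results of these data known. Libraries of one genotype differed by more than sampling noise (a chi-square of 20.9 to 76.5 for each degree of freedom), and as nothing more is said of how they were prepared, p-values measure the spread between these mice. The departures of mice with the same number from the mean of their genotype had correlations of 0.129, 0.501, 0.141 and 0.294 over all genes. Over autosomal genes these were 0.0873, 0.481, 0.0921 and 0.252. Mice of different numbers were not compared in this way, so a pairing by number was not shown. The main fit and the exact permutation test treat the mice as unpaired, and the blocked p is given where it changes a call. The alternatives were DESeq2 1.42.0, other factors and filters, the block, a term for the Xist and Y group, limma 3.58.1 on log2(FPKM + 1) and log2(FPKM + 0.1), narrower windows, all gene types, and leaving out each mouse. Promoters come from the RefSeq table of GRCm38.p6, in which 162 of the 203 genes have an entry. Identity between transcripts was measured with blastn 2.17.0.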

Additional observations from a re-analysis of the deposited data

Results flagged for a closer look

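In 66 groups of 4 mice (33 named genes in each genotype), 11 met Dixon's criterion for 1 mouse standing apart from the remaining 3, where chance flags about 1 group in 20. All values are CPM. Rhbg measured 3.63 in KO replicate 3, against 2.02 to 2.19 in the other KO mice. Pklr measured 63.2 in WT replicate 1, against 86.4 to 91. Zbtb7b measured 182.5 in KO replicate 1, against 225 to 231. Tmem131l measured 33.8 in WT replicate 3, against 38 to 38.6. Sprr2a2 measured 4.18 in WT replicate 4, against 0.185 to 0.794. Rab25, next to Mex3a, measured 118.6 in WT replicate 4, against 133.8 to 136.1. Ssr2 measured 227.2 in WT replicate 2, against 178 to 183. Khdc4 measured 117.2 in KO replicate 2, against 107.8 to 108.9. Tlr2 measured 11.8 and S100a11 41.4 in KO replicate 2, against 3.46 to 4.76 and 30.1 to 31.3. Rps3a1 measured 1452 in KO replicate 1, against 1151 to 1164.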

How the results depend on the processing

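Of 269 alternative values for the 16 called genes, 220 kept direction and an unadjusted p under 0.05, 49 lost the p, and 0 changed sign. Sh2d2a, Rhbg, Lmna, Pklr, Clk2 and Trim46 kept the call in all 17 alternatives. Fcrl1 kept it in 16, but the requirement of 10 counts in every mouse, which removes its selection through the KO mice, dropped it from the test. With DESeq2, 1 gene passed the adjusted threshold instead of 0, while the share of all genes that did rose from 0.00621% to 0.577%. Within a window of 1 Mb on each side, 10 of 63 tested genes were called (15.9%, background 8.38%). With the replicate block 19 genes were called (background 11.3%): Sema4a was lost, and Slc25a44, Dcst1, Adar and S100a11 (named for this) were gained. The block changed no other call. The Xist and Y group parts the mice by whether Xist or the Y gene Ddx3y had more counts. With a term for it, 19 genes were called (background 11.3%), 12 of them within 1 Mb. When single mice were left out, the number called lay between 9 and 20, higher between 5 and 14, lower between 2 and 7, within 1 Mb between 6 and 13, and with separated genotypes between 13 and 25. In 5 of these fits Prss48 entered through the WT mice and was called lower; without it the ranges are 8 to 19 called, 2 to 6 lower and 12 to 24 separated. The background moved as well, from 5.16% to 13% called (13% in the fit with 20 calls) and from 5.58% to 12.3% separated. No gene of the interval passed the adjusted threshold in these 8 fits. Signs turned in genes with small changes. Hdgf had a log2 fold change of 0.0039 with DESeq2 and with RLE factors, 0.0063 without the filter, 0.0024 with 10 counts required in every mouse, 0.0017 with the block and 0.010 with limma at either pseudocount. With single mice left out it lay between -0.048 and 0.075, Pmf1 between -0.15 and 0.11, Rps27 between -0.17 and 0.27, Ssr2 between -0.014 and 0.17 and Tlr2 between -0.45 and 0.38; the cause was not tested. The median log2 fold change of all genes moved by less than 0.1 under every scaling. Some of the called genes rest on few reads: Fcrl1, Sh2d2a, Rhbg, Trim46, Tsacc, Tchh and Sprr2a2 had 4 to 234 counts per mouse.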
